A study of Mus musculus with 4 samples.

Results

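Integrins and cadherins are the main families of adhesion receptors at the cell surface. An integrin is a pair of an alpha and a beta subunit that binds extracellular matrix proteins such as laminin, fibronectin and collagen, and passes force and signals to actin through adaptors such as talin and kindlin. Classical cadherins bind the same cadherin on the neighbouring cell and are tied to actin by catenins. In mouse embryonic stem cells, E-cadherin holds the cells in compact colonies, and integrins with the β1 subunit anchor them to laminin and fibronectin.

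The genes described here are all rows of the deposited table whose symbol is that of a numbered integrin alpha or beta subunit or a numbered cadherin. They were 43 of 22138 genes, 20 integrins and 23 cadherins, and every symbol occurred once. Integrin subunits named with a letter, such as Itgav, protocadherins and desmosomal cadherins are outside that choice and are given below as separate lists. Of the 43 genes, 18 averaged 0.5 RPKM or more across libraries and were tested, 12 integrins and 6 cadherins. The other 25, 8 integrins and 17 cadherins, were too low for the test and are described by their values.

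RNA was sequenced from TT2, an established line of mouse embryonic stem cells (C57BL/6xCBA background, labelled female) grown in serum and LIF without feeder cells. The cells received control siRNA (n = 2) or siRNA against Hnrnpk (n = 2), at 100 nM and again at 50 nM after 24 hours, and were collected about 72 hours after the second dose. All 4 libraries share the line, the culture and the double transfection. Hnrnpk encodes hnRNP K, a protein that binds RNA and DNA. The series title sets it beside the histone methyltransferase SETDB1 in gene silencing, and the comparison asks which transcripts differ once Hnrnpk is depleted. The sources used here do not give the siRNA sequence or the number of siRNAs.

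Values are RPKM, mapped reads scaled to transcript length and library size, so levels can be set side by side between genes. Hnrnpk itself measured 236 and 226 RPKM with control siRNA (the controls) and 68.0 and 70.5 RPKM with Hnrnpk siRNA (the knockdowns). The relative depth of the libraries, read from the steps between low values, lay between 0.882 and 1, lower in both knockdown libraries, and the RPKM values summed to between 359659 and 390467. All 10 pluripotent cell markers were tested and had 71.3 RPKM or more in every library, with 2 called higher and 3 lower. The summed level of the primitive endoderm markers was 6.67 and 6.35 RPKM in the controls and 33.1 and 34.6 RPKM in the knockdowns, and 7 of 7 tested were called higher. For the trophectoderm markers the sums were 34.9 and 40.4 against 74.0 and 78.7 RPKM, with 6 of 6 tested called higher. For the two-cell-like markers they were 0.787 and 0.725 against 40.0 and 47.5 RPKM, with 6 of 6 tested called higher. All 6 of these two-cell-like genes and 3 of the 7 primitive endoderm genes passed the 0.5 RPKM filter only through the knockdowns and so had to lie higher there. Over all tested genes 32.2% were called higher and 35.0% lower. The part of these marker lists in the results below was not tested, and in bulk RNA fewer cells of a type and less RNA per cell cannot be told apart.

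After Hnrnpk siRNA, 3 of the 12 tested integrins rose (Itga1, Itga5 and Itgb4), 5 fell (Itgb7, Itga3, Itga7, Itga9 and Itga2b) and 4 were not called. Of the 6 tested cadherins, 3 fell (Cdh3, Cdh15 and Cdh1), 0 rose and 3 were not called. Itga1 passed the filter only through the knockdowns, and Itga2b and Cdh15 only through the controls, so these 3 had to differ. Of the members whose mean reached 0.5 RPKM in both groups, 2 of 10 integrins rose and 4 fell, and 0 of 5 cadherins rose and 2 fell. The limma test, with Benjamini-Hochberg adjustment across all 12486 tested genes, called 67.2% of all genes, 32.2% higher and 35.0% lower, so a call is common in this experiment. The 11 calls among 18 members stand near that background. The groups did not overlap for 9 of the 12 integrins (3 with both knockdowns higher, 6 lower) and for all 6 cadherins (1 higher, 5 lower), beside 84.7% of all tested genes, 41.2% higher and 43.5% lower. None of the 18 members reached a log2 change of 1 in size at an adjusted p under 0.05, a size reached by 8.51% of all genes tested. That limit depends on the added value and the libraries: Itga1 reached 1.34 with 0.1 RPKM added (limma adjusted p = 9.76e-05), and Cdh3 reached -1.01 without control replicate 2 (5.43e-08). The median log2 change was -0.050 over the tested integrins and -0.21 over the tested cadherins, beside -0.015 over all genes tested. Leaving out control replicate 2 moved the integrin median to -0.099, and a correction for GC content moved the medians to -0.0046 and -0.074. At 2 libraries a group the lowest p an exact permutation test can reach is 0.333, so each call rests on the spread that limma shares between genes.

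**Figure D1:**
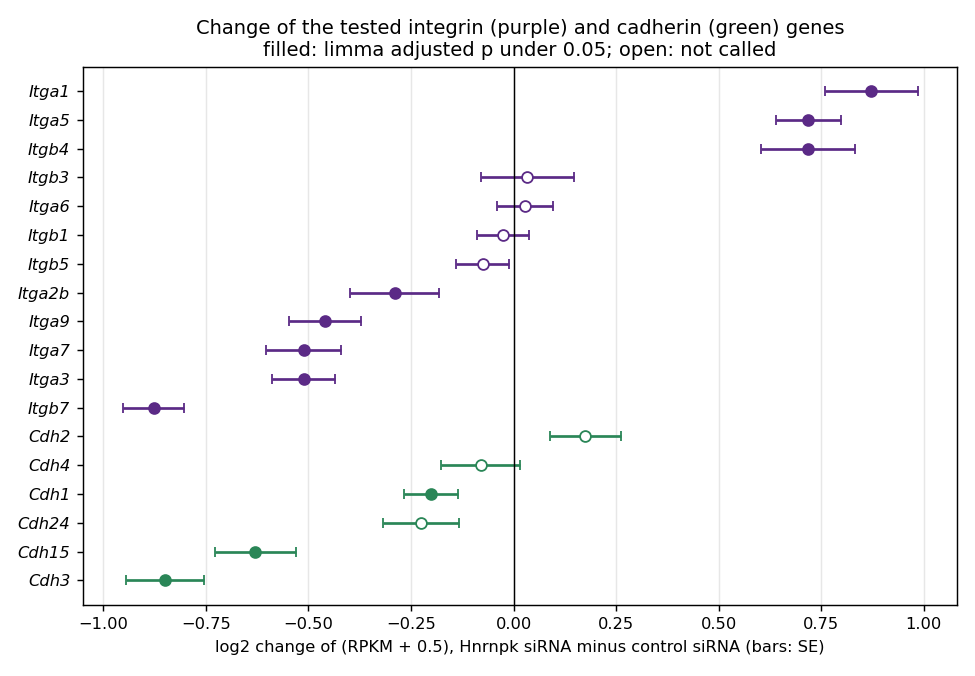
Log2 change of RPKM + 0.5 between Hnrnpk siRNA and control siRNA (x axis) for each tested integrin and cadherin gene (y axis), with SE as bars; filled points were called. Itga1, Itga5 and Itgb4 lie to the right of 0 and Itgb7 and Cdh3 lie furthest to the left, at -0.88 and -0.85.

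The 250 bases before the start of 3 integrin genes are shown because of the tested members Itga1 had the largest log2 rise, Itga5 the rise at the highest level and Itgb7 the largest log2 fall with 0.5 RPKM added. These ranks change with the setting: Itga5 rose most with 1 RPKM added (0.70 against 0.61 for Itga1), Itgb4 rose most without control replicate 1 and with GC trends removed (0.90 and 0.93), and Cdh15 or Cdh3 fell more than Itgb7 under the settings given with Itgb7. The sequences are from RefSeq on GRCm38.p6, given 5′ to 3′ on the strand of the gene, and capitals mark CCCTCCC or its reverse complement GGGAGGG, a C-rich element of the kind hnRNP K is known to bind.
Itga1, chr13:115101965-115102214, minus strand: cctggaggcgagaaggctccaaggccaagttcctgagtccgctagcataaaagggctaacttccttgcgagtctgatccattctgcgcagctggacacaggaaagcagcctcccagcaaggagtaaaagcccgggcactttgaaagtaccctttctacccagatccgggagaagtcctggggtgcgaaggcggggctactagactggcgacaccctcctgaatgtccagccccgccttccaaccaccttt
Itga5, chr15:103366792-103367041, minus strand: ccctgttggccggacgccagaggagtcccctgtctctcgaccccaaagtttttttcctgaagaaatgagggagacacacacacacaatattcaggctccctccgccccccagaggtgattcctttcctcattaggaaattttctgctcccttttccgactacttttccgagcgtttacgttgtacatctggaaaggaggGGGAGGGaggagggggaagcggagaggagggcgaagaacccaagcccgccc
Itgb7, chr15:102231936-102232185, minus strand: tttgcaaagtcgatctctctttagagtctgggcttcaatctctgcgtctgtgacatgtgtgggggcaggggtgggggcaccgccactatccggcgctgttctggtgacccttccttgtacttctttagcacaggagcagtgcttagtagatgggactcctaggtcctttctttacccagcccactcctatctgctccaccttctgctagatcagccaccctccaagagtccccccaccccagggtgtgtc

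The Itga5 window held 1 match to this element, and the Itga1 and Itgb7 windows held 0. The same window holds it in 19.7% of the 32851 promoters in the table, and in 4 of the 11 promoters listed for the tested members. The E-box CAGGTG (reverse complement CACCTG), the letters that SNAI and ZEB repressors recognise, was in none of the 3 windows, in 3 of those 11 promoters and in 17.2% of all. The elements do not overlap in these letters. Promoters were matched for 10 of the 18 tested members, and Cdh1, Cdh2, Cdh3, Cdh4, Itga6, Itga7, Itgb3 and Itgb4 were not matched. Itga3 was listed more than once. Some windows lie inside the annotated gene, as for an entry of Itga3 and for Itga9, which held the E-box. The Itga9 window spans 118711442 to 118711691 on chromosome 9, in a gene that starts at 118606690. A match in this window describes letters and not a bound site.

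Integrin alpha subunits set what the receptor binds. Itga6 (ENSMUSG00000027111, GRCm38 chromosome 2, 71745616 to 71858416) encodes α6, a laminin-binding subunit, and had 22.7 and 21.9 RPKM in the controls and 23.7 and 21.9 RPKM in the knockdowns. The groups overlapped, and its log2 change of 0.028 (SE 0.0683) was not called by limma (adjusted p = 0.732). Itga3 (ENSMUSG00000001507, chromosome 11, 95044474 to 95076801), another laminin-binding subunit, had 16.2 and 18.4 RPKM and then 12.0 and 11.9 RPKM. Both knockdowns lay below both controls, with 17.3 ± 1.53 and 12.0 ± 0.0703 RPKM (SD, n = 2 each). Itga3 fell by 0.51 on the log2 scale (limma adjusted p = 0.000268, SE 0.0768). Itga7, the third laminin-binding alpha gene and best known from muscle, was far lower, at 1.58 and 1.495 RPKM against 0.907 and 0.949 RPKM, and its log2 change was also -0.51 (limma adjusted p = 0.000799, SE 0.0914). Of these 3 laminin-binding alpha genes, 2 fell and the most abundant was not called. Of all tested genes 67.2% were called, 35.0% lower.

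Itga5 (ENSMUSG00000000555, chromosome 15, 103344286 to 103366763) encodes α5, which with β1 forms the classical fibronectin receptor. It had 16.7 and 19.5 RPKM in the controls and 29.9 and 30.2 RPKM in the knockdowns, with group values of 18.1 ± 1.99 and 30.1 ± 0.248 RPKM (SD, n = 2 each). The groups did not overlap, the ratio of means was 1.66, and the log2 change was 0.72 (limma adjusted p = 3.79e-05, SE 0.0798). Itga2b, the platelet subunit αIIb, stood low at 0.722 and 0.578 RPKM against 0.397 and 0.482 RPKM, and passed the filter through its level in the controls. Its log2 change of -0.29 (SE 0.108) was called by limma at an adjusted p of 0.0370, but this call was lost without control replicate 1 (-0.20, adjusted p = 0.0855), without Hnrnpk siRNA replicate 1 (-0.23, 0.249) and without Hnrnpk siRNA replicate 2 (-0.35, 0.0797). It was also lost with GC trends removed (-0.13, adjusted p = 0.234) and with no filter, with values from 0.00329 to 0.249 across alternatives, and the change was -0.47 with an added 0.1 RPKM.

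Itga1 (ENSMUSG00000042284, chromosome 13, 114953096 to 115101964) encodes the collagen-binding subunit α1. Its level was 0.323 and 0.449 RPKM in the controls and 1.22 and 1.02 RPKM in the knockdowns, and the groups did not overlap. The ratio of means was 2.90, while the log2 change with 0.5 RPKM added was 0.87 (limma adjusted p = 0.000101, SE 0.113). With an added 0.1 RPKM the change was 1.34. Since the mean over 4 libraries had to reach 0.5 RPKM, Itga1 was tested through its level after Hnrnpk siRNA. Itga2 lies 20996 bases from Itga1 on chromosome 13 and also encodes a collagen-binding subunit; it was not tested, and had 0.00956 and 0.0139 RPKM against 0.0458 and 0.0443 RPKM. Itga9, whose product binds tenascin and other ligands, had 2.65 and 2.86 RPKM against 1.89 and 1.85 RPKM and fell by 0.46 on the log2 scale (limma adjusted p = 0.00118, SE 0.0876).

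Shares of the alpha genes in their common sum differed between the libraries. The summed RPKM of 18 alpha genes, those described here and 6 named with letters, was 71.2 and 74.8 in the controls and 79.6 and 77.5 in the knockdowns. Itga5 made up 23.5% and 26.1% of that sum in the controls and 37.5% and 39.0% in the knockdowns. Itga3 went from 22.8% and 24.6% to 15.1% and 15.4%, and Itga6 from 31.9% and 29.3% to 29.8% and 28.2%. In the control libraries Itga6 was the highest alpha gene, with 0.736 and 0.891 Itga5 RPKM per Itga6 RPKM. In the knockdown libraries Itga5 was the highest, with ratios of 1.26 and 1.38. The ratio of Itga5 to Itga3 was 1.03 and 1.06 and then 2.49 and 2.54. These ratios are descriptions within libraries and carry no test.

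**Figure D2:**
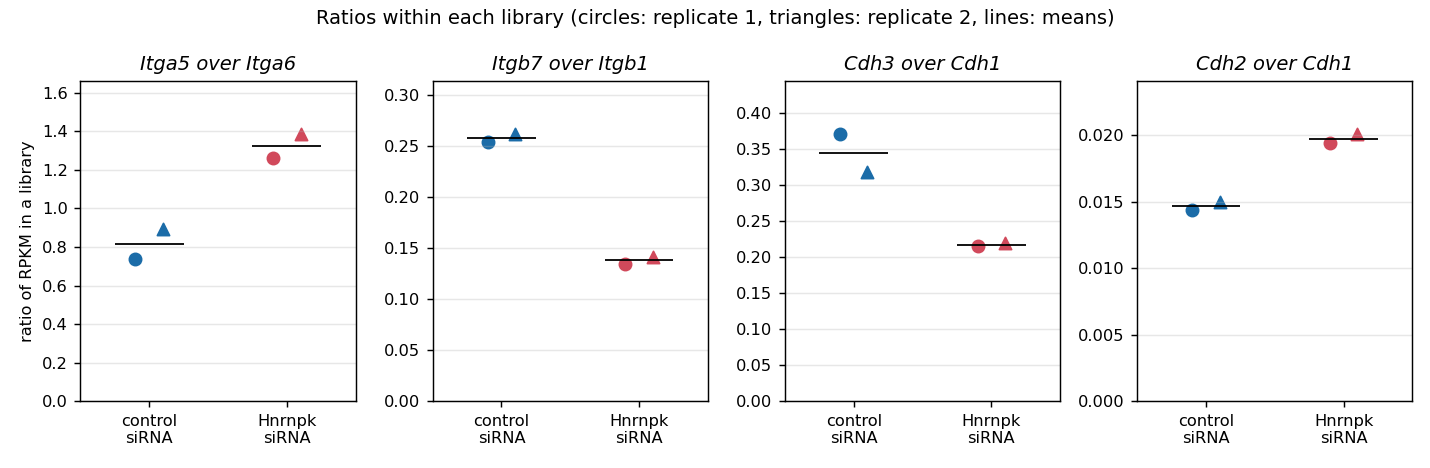
Ratios of RPKM within each library (y axis, from 0) for 4 pairs of genes, by siRNA group (x axis); points are libraries and lines are group means. Itga5 over Itga6 lay at 0.736 and 0.891 in the controls and at 1.26 and 1.38 in the knockdowns, and Cdh3 over Cdh1 was lower in both knockdown libraries.

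Most beta subunits carry a tail that binds talin and kindlin. Itgb1 (ENSMUSG00000025809, chromosome 8, 128685654 to 128733200), the β1 subunit that pairs with most alpha chains, was the highest integrin gene in every library, at 47.6 and 50.5 RPKM in the controls and 48.6 and 47.7 RPKM in the knockdowns. The groups overlapped and the log2 change was -0.025 (limma adjusted p = 0.737, SE 0.0627). Itgb5, a partner of αV, had 19.0 and 18.8 RPKM against 18.0 and 17.8 RPKM. Both knockdown libraries of Itgb5 lay lower, but its log2 change of -0.075 (limma adjusted p = 0.316, SE 0.0636) was not called. Itgb3, another αV partner, was not called at 1.34 and 0.999 RPKM against 1.20 and 1.21 RPKM.

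Itgb7 (ENSMUSG00000001281, chromosome 15, 102215995 to 102231944), known from lymphocytes where it pairs with α4 or αE, had the largest fall of the tested members on the log2(RPKM + 0.5) scale. By the ratio of means Cdh15 fell further (0.453 against 0.526 for Itgb7), as it did with 0.1 RPKM added (-0.98 against -0.92), and Cdh3 fell further than Itgb7 with 1 RPKM added, under quantile normalization, with GC trends removed, and without control replicate 2 or Hnrnpk siRNA replicate 1. Itgb7 had 12.1 and 13.2 RPKM in the controls and 6.57 and 6.74 RPKM in the knockdowns, with group values of 12.7 ± 0.771 and 6.66 ± 0.125 RPKM (SD, n = 2 each). The groups were well apart, and the log2 change was -0.88 (limma adjusted p = 7.84e-06, SE 0.0754). Its known partners were far lower: Itga4 lay between 0.0144 and 0.0509 RPKM, and Itgae had 1.05 and 1.18 RPKM against 0.788 and 0.889 RPKM. Per RPKM of Itgb1, Itgb7 stood at 0.255 and 0.262 in the controls and at 0.135 and 0.141 in the knockdowns. Of the 7 blood cell markers measured, Cd68, Gata1 and Hba-a1 were called higher and Cd34 was not called. Hba-a1 passed the filter only through the knockdowns and so had to lie higher there. Coro1a, an actin regulator of leukocytes, fell from 7.78 and 7.17 to 3.56 and 3.76 RPKM (log2 change -0.94, limma adjusted p = 8.47e-06). Ptprc, the pan-leukocyte marker, was at most 0.00212 RPKM in any library, and Lyz2 at most 0.0383 RPKM. The part of such cells in the value of Itgb7 was not tested.

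Itgb4 encodes β4, which pairs with α6 in the hemidesmosomes of epithelia. It had 3.03 and 2.26 RPKM in the controls and 4.71 and 4.57 RPKM in the knockdowns, with no overlap. The log2 change was 0.72 (limma adjusted p = 0.000401, SE 0.115), and with no filter on low genes the call was lost (adjusted p = 0.0620, with values from 5.76e-07 to 0.0620 across alternatives). An RNA gene on the opposite strand, B230344G16Rik, overlaps 7.7% of the exonic bases of Itgb4, and the sources used here do not say whether the libraries kept strand. Over the 5 tested beta genes, 1 rose, 1 fell and 3 were not called, beside 32.2% higher and 35.0% lower over all tested genes. The sum over all 8 beta genes was 83.1 and 85.8 RPKM against 79.5 and 78.5 RPKM.

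**Figure D3:**
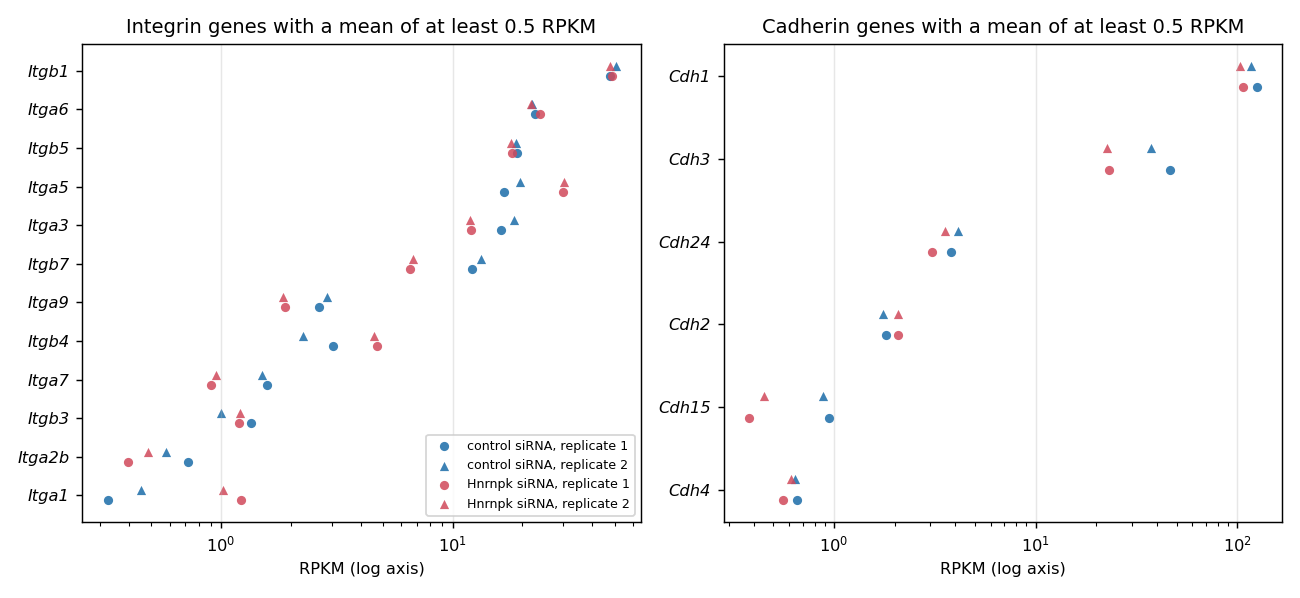
RPKM in each library (x axis, log scale) of the 12 tested integrin genes (left) and 6 tested cadherin genes (right); blue points are control siRNA, red points Hnrnpk siRNA, circles replicate 1 and triangles replicate 2. Itgb1 and Itga6 show mixed colours, while the colours are apart for Itga5, Itgb7 and Cdh3.

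Among cadherins, the classical type I genes carried nearly all of the transcripts. Cdh1 and Cdh3 together made up 95.3% and 94.7% of the summed RPKM of all 23 cadherins in the controls and 94.3% and 93.6% in the knockdowns. Cdh1 (ENSMUSG00000000303, chromosome 8, 106603351 to 106670246) encodes E-cadherin and was the highest of the 43 genes in every library, at 126 and 117 RPKM in the controls and 107 and 103 RPKM in the knockdowns. The groups did not overlap, at 121 ± 6.06 and 105 ± 3.08 RPKM (SD, n = 2 each), and the fall was small, with a log2 change of -0.20 (limma adjusted p = 0.0208, SE 0.0657). The call was lost without control replicate 1 (-0.15, adjusted p = 0.128), without Hnrnpk siRNA replicate 2 (-0.17, 0.0965) and with no filter (0.0853), with values from 0.00263 to 0.128 across alternatives.

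Cdh3 (ENSMUSG00000061048, chromosome 8, 106510891 to 106557297) encodes P-cadherin and lies 46.1 kilobases before Cdh1 on the same strand. It had 46.5 and 37.2 RPKM in the controls and 23.1 and 22.6 RPKM in the knockdowns, or 41.9 ± 6.53 and 22.9 ± 0.346 RPKM (SD, n = 2 each). The control libraries differed from each other more than the knockdown libraries did, yet the groups did not overlap. The log2 change was -0.85 (limma adjusted p = 3.88e-05, SE 0.0948). The ratio of Cdh3 to Cdh1 was 0.370 and 0.318 in the controls and 0.215 and 0.219 in the knockdowns, so the neighbouring genes did not move in proportion.

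Cdh2, which encodes the N-cadherin of neural and mesenchymal cells, stood at 1.81 and 1.76 RPKM against 2.08 and 2.07 RPKM. Its log2 change of 0.18 (limma adjusted p = 0.0983, SE 0.0865) was not called. Quantile normalization gave a call (0.28, adjusted p = 0.0126), as did the fit with GC trends removed (0.20, 0.0465), with values from 0.0126 to 0.328 across alternatives. Cdh2 was 0.0144 and 0.0150 of Cdh1 in the controls and 0.0194 and 0.0201 in the knockdowns. Cdh15, the M-cadherin of muscle, was at 0.945 and 0.880 RPKM against 0.379 and 0.448 RPKM and fell by 0.63 on the log2 scale (limma adjusted p = 0.00035, SE 0.0987); with an added 0.1 RPKM the change was -0.98. Cdh15 was tested through its level in the controls. Cdh4, the R-cadherin gene, was not called at 0.653 and 0.640 RPKM against 0.557 and 0.613 RPKM.

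Type II cadherins are known from nerve, vessel and mesenchyme, and 12 of the 13 were too low to test. Cdh24 was the exception, at 3.79 and 4.10 RPKM against 3.07 and 3.54 RPKM. Its log2 change of -0.23 (limma adjusted p = 0.0547, SE 0.0931) was not called. It was called without control replicate 1 (-0.28, adjusted p = 0.0204) and without the mean-variance trend (adjusted p = 0.0470), and with GC trends removed it was 0.013 (0.904), with values from 0.0204 to 0.904 across alternatives.

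The 25 members under the filter had at most 0.602 RPKM in any library, and 0 of them were at 0 in all 4 libraries. For 13 of them both knockdowns were higher than both controls (5 integrins and 8 cadherins), for 6 both were lower (2 integrins and 4 cadherins), and 6 overlapped. Among the 6328 genes under the filter with a value above 0, 60.4% did not overlap, 34.5% with Hnrnpk siRNA higher and 25.8% with it lower.

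Among the low members, 3 that were higher in the knockdowns were chosen for description after their values were seen. Cdh5, the VE-cadherin of endothelium, had 0.0505 and 0.0370 RPKM in the controls and 0.257 and 0.272 RPKM in the knockdowns, a ratio of means of 6.04. Itgb2, the common beta chain of leukocyte integrins, had 0.0859 and 0.0941 RPKM against 0.434 and 0.446 RPKM, a ratio of 4.89. The Itgb2 transcript shares 7.7% of its length at 95% identity or more with Gm14699. Cdh6 had 0.0888 and 0.109 RPKM against 0.342 and 0.339 RPKM. For all 3 genes the groups were far apart at levels well under 1 RPKM.

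Of the endothelial markers, Kdr lay between 0.0798 and 0.1003 RPKM and Emcn at no more than 0.00331 RPKM, while Tie1 went from 0.0604 and 0.0345 to 0.283 and 0.283 RPKM. Sox18 fell from 3.09 and 3.02 to 0.9945 and 1.19 RPKM (log2 change -1.16). Vwf fell from 2.21 and 2.04 to 0.785 and 0.752 RPKM (-1.05). Pecam1, Tek and Esam were called higher. The 8 endothelial markers summed to 48.7 and 46.1 RPKM against 57.7 and 59.6 RPKM, mostly Pecam1, with 3 called higher and 2 lower of 5 tested. Among all tested genes 32.2% were called higher and 35.0% lower. The 7 blood cell markers measured summed to 21.6 and 20.1 RPKM against 55.8 and 56.1 RPKM, mostly Cd68, with 3 called higher and 1 lower of 5 tested. Of those 5, Hba-a1 passed the filter only through the knockdowns and so had to lie higher there. The part of endothelial or blood cells in the values of Cdh5 and Itgb2 was not tested.

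Other low members lay lower or higher after Hnrnpk siRNA. Among those lower, Cdh10 had 0.231 and 0.224 RPKM against 0.131 and 0.0960 RPKM, and Cdh9 had 0.217 and 0.220 RPKM against 0.139 and 0.0981 RPKM. Cdh9 shares 6.8% of its transcript at 95% identity or more with Gm49127. Itga10 had 0.602 and 0.546 RPKM against 0.344 and 0.336 RPKM, and shares 33.5% of its exonic bases with Gm42957, so its value is uncertain. Among those higher, Cdh26 was listed at 0 in both controls, and had 0.0304 and 0.0349 RPKM after knockdown. Cdh11, at 0.242 and 0.298 RPKM against 0.463 and 0.502 RPKM, shares 20.3% of its transcript at 95% identity or more with 7 other genes. Of these Gm6483 was tested and rose as well, from 1.18 and 1.16 to 1.96 and 1.83 RPKM (log2 change 0.52, limma adjusted p = 0.000657), so reads of Cdh11 and Gm6483 may not be told apart.

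**Figure D4:**
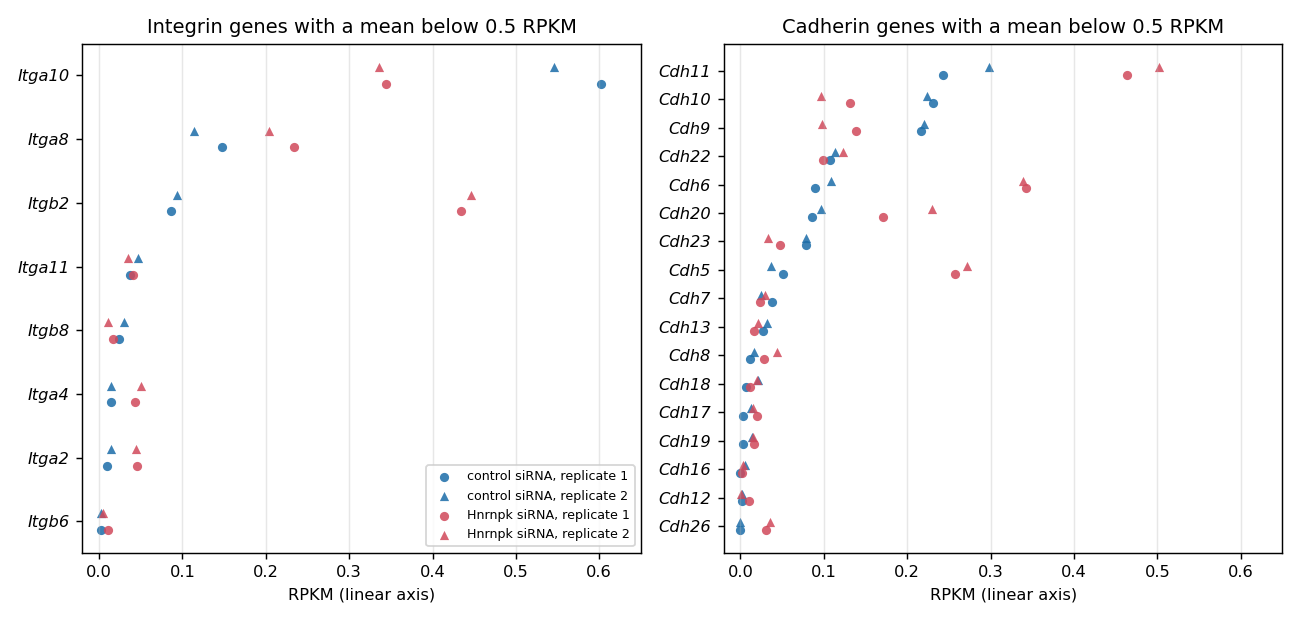
RPKM in each library (x axis, linear from 0) of the 8 integrin genes (left) and 17 cadherin genes (right) with a mean below 0.5 RPKM; colours and shapes give the siRNA and the replicate. Itgb2, Cdh5 and Cdh6 show both knockdown libraries far to the right of the controls, and Itga10 shows the reverse.

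Genes that work with these receptors were taken from lists chosen by function. Of the 6 integrin subunits named with letters, 3 were tested, 1 rose and 2 fell. Calls over all tested genes were 32.2% higher and 35.0% lower. Itgav, the αV subunit of the vitronectin receptors, had 4.18 and 3.65 RPKM against 5.47 and 4.79 RPKM and rose by 0.35 on the log2 scale (limma adjusted p = 0.00919, SE 0.0962). The leukocyte subunit Itgal was at 3.83 and 3.63 RPKM against 2.55 and 2.81 RPKM, and fell by 0.41.

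Integrin ligands were measured as 27 genes, of which 19 were tested, 10 rose, 6 fell and 3 were not called, with a median log2 change of 0.28. Of all tested genes 32.2% were called higher and 35.0% lower, with a median of -0.015. The largest changes in the list were those of Col4a1, from 6.75 and 6.62 to 22.5 and 23.8 RPKM, and Col4a2, from 2.30 and 2.08 to 7.57 and 8.01 RPKM, the collagen IV chains of basement membranes. Mfge8, a secreted protein that αV integrins bind, went from 78.0 and 66.3 to 151 and 157 RPKM. Their log2 changes were 1.72, 1.62 and 1.09 (highest limma adjusted p 3.19e-06). In the same list 5 genes rose and 0 fell by a log2 change of at least 1, a size reached in either direction by 8.51% of all genes. Among the 6 that fell, Fn1 (fibronectin) went from 262 and 256 to 201 and 177 RPKM (-0.46). The laminin chain Lamc1 fell from 91.2 and 93.4 to 62.4 and 59.3 RPKM (-0.60), while Lama5 rose from 17.6 and 18.5 to 37.7 and 38.2 RPKM (1.05).

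Integrin adaptors and signalling genes went both ways, with 7 called higher, 10 lower and 17 not called of 34 tested (median -0.038), beside 32.2% higher and 35.0% lower over all tested genes. Tln2, a second talin, fell from 9.97 and 9.41 to 3.70 and 3.56 RPKM, a log2 change of -1.30. Parvb, a parvin that joins integrin-linked kinase to actin, rose from 21.9 and 18.2 to 36.3 and 33.1 RPKM (0.78), and Kank2 fell from 40.0 and 30.7 to 22.6 and 22.4 RPKM (-0.63). The highest limma adjusted p of the 3 was 0.000539.

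Of the catenins and other partners of adherens junctions, 7 rose, 4 fell and 6 were not called of 17 tested, with a median log2 change of 0.067. Across all tested genes 32.2% were called higher and 35.0% lower, with a median of -0.015. Ctnnb1, β-catenin, rose from 214 and 209 to 270 and 267 RPKM (log2 change 0.34, limma adjusted p = 0.000963). Ctnna1, α-catenin, rose from 148 and 146 to 187 and 172 RPKM (0.29, 0.00376). Jup, plakoglobin, which can take the place of β-catenin, rose from 62.5 and 59.6 to 99.4 and 94.2 RPKM (0.66, 1.62e-05). Ctnnd1, the p120 catenin, was not called at 53.2 and 55.3 against 58.0 and 52.9 RPKM (0.030, 0.710). Ctnnb1 per Cdh1 was 1.70 and 1.79 in the controls and 2.51 and 2.59 in the knockdowns. The largest falls were in Mllt4 (afadin, which links nectins to actin), from 27.5 and 23.8 to 10.1 and 9.15 RPKM, Lima1, from 28.0 and 22.9 to 10.1 and 9.74 RPKM, and the nectin gene Pvrl3, from 3.51 and 3.59 to 2.04 and 2.0 RPKM, with log2 changes of -1.37, -1.31 and -0.68.

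Among desmosomal cadherins, 2 of 9 were tested and both were called higher, beside 32.2% of all tested genes. Dsc2 went from 0.424 and 0.349 to 1.61 and 1.58 RPKM (log2 change 1.24), and was tested only through its level in the knockdowns. Dsg2 went from 14.2 and 12.6 to 16.4 and 16.0 RPKM (0.27). In the wider cadherin superfamily, 8 of 29 rows were tested, 2 rose and 6 fell, with a median of -0.58. Over all tested genes 35.0% were called lower, and the median was -0.015. Of the 2 that rose, Pcdh19 passed the filter only through the knockdowns. Clstn3, a calsyntenin, fell from 17.5 and 17.4 to 5.26 and 5.27 RPKM (-1.64), and Celsr3, of the planar polarity cadherins, from 1.87 and 1.91 to 0.698 and 0.660 RPKM (-1.02). Fat1, a giant cadherin of the FAT family, rose from 29.7 and 30.7 to 55.9 and 50.9 RPKM (0.81).

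Regulators of the change between epithelial and mesenchymal state were called higher for 5, lower for 4 and not called for 2 of 11 tested. The shares of all tested genes were 32.2% higher and 35.0% lower. Snai1, a repressor best known for binding the E-cadherin gene, rose from 2.18 and 2.13 to 17.8 and 18.2 RPKM (log2 change 2.80, SE 0.0743, limma adjusted p = 2.04e-08). Its relative Snai3 fell from 9.35 and 8.61 to 4.21 and 4.19 RPKM (-1.01), and the epithelial splicing regulator Esrp1 from 9.63 and 8.83 to 3.86 and 3.89 RPKM (-1.15). Of the other genes in the list, Vim (vimentin, a mesenchymal filament protein), Zeb1, Twist1 and Snai2 were called higher, the last tested only through its level in the knockdowns, and Epcam, an epithelial adhesion protein, and Grhl2 were called lower. Vim went from a mean of 87.6 ± 10.4 to 121 ± 2.35 RPKM (SD, n = 2 each), a log2 change of 0.47. Epcam went from 100.3 and 91.7 to 61.0 and 61.8 RPKM (-0.64). In the same libraries Cdh1 stood at 0.868 of its control mean and Cdh2 was not called.

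**Figure D5:**
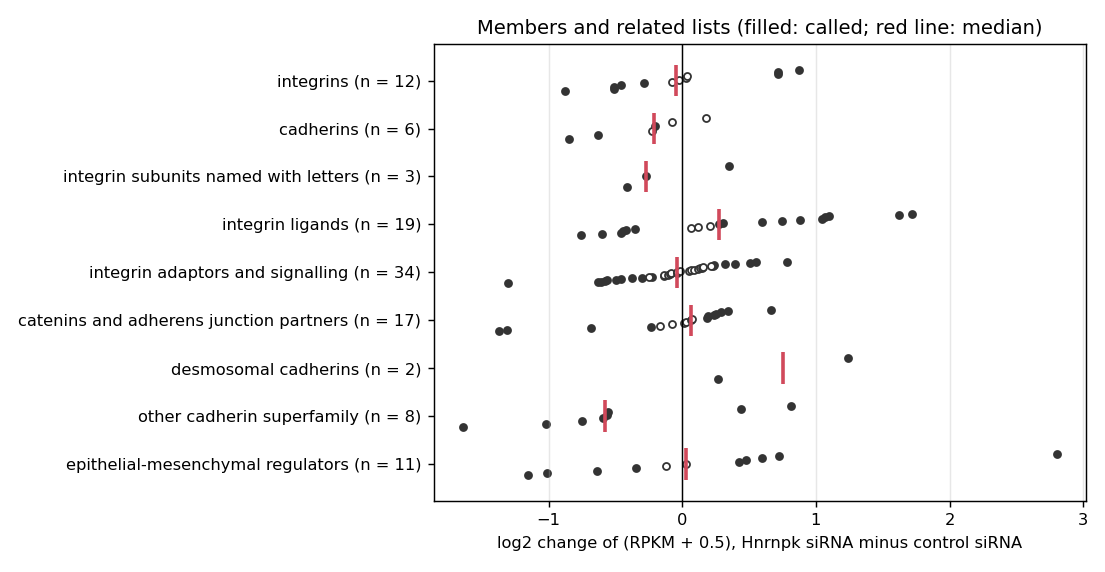
Log2 change of RPKM + 0.5 (x axis) of each tested gene in the integrins, the cadherins and 7 related lists (y axis, with the number tested); filled points were called and red lines are medians. The medians run from -0.58 in the other cadherin superfamily to 0.75 in the desmosomal cadherins, where both tested genes lie above 0, and Snai1 lies furthest to the right at 2.80.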

How the data were processed

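The authors deposited 1 table of RPKM per gene with a column for each of 4 libraries. Per the submitters' processing notes, BWA, SAMtools and the mm9 build were used; the sources used here do not give versions, the counting tool, the annotation, the strandedness or how reads with several matches were counted. Per the labels' protocols the RNA was poly(A)-selected, while the labels' descriptions name depletion of ribosomal RNA. RPKM values are not counts, and no count model was used. Positions, exons and GC content are from GENCODE M21 on GRCm38 by Ensembl identifier, not converted from mm9.

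Values were analysed as log2(RPKM + 0.5), which understates changes of low genes. The 12486 genes averaging 0.5 RPKM or more across libraries were tested with limma 3.58.1 in R 4.3.3 (mean-variance trend, two-sided, all 4 libraries, no covariate), with Benjamini-Hochberg adjustment and calls at 0.05. The procedure was tested on simulated data. Shared sequence was searched with BLAST 2.17.0 (95% identity, 100 bases or more). The design text calls the replicates biological; whether they came from separate cultures is not given, so p-values measure the spread between these libraries, which may be technical.

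The members and lists were chosen with earlier results of these data known. Tested members are described with their 4 values, and of each related list the counts, up to 3 called genes with the largest change, and Itgav, Ctnnb1, Ctnna1, Ctnnd1 and Jup; other names were chosen after their values were seen. Alternatives were the added value, the filter, scaling, GC trend, replicate block, variance trend and leaving out each library.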

Additional observations from a re-analysis of the deposited data

How the results depend on the processing

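Of the 11 called members, 8 were called under every alternative that tested them, the exceptions being Cdh1, Itga2b and Itgb4. The 8 include Itga1 and Cdh15, which passed the filter through 1 group only and so had to differ. Neither was tested when a mean of at least 1 RPKM was required. The share of all called genes that stay called under every alternative was not computed. Over the 18 tested members and all alternatives, 210 log2 changes kept direction and side of the threshold, 9 lost the call, 5 gained it and 6 changed sign; all 6 were uncalled genes. With GC trends removed the sign changed for Cdh4 (0.023), Itgb5 (0.056) and Cdh24 (0.013), and without 1 library at a time for Itgb3 (from -0.12 to 0.18), Itgb1 (from -0.067 to 0.017) and Itga6 (from -0.029 to 0.085). With no filter, which adds the low members, 5 integrins were called higher and 5 lower, 4 cadherins higher and 5 lower, beside 34.1% of all 22138 genes called (17.1% higher and 17.0% lower), and the medians were 0.0021 for integrins and 0.0020 for cadherins. Those 22138 genes include 3324 at 0 in all 4 libraries, which cannot be called, while 0 of the 43 members were at 0 throughout. Under quantile normalization and with GC trends removed, 1 cadherin (Cdh2) was called higher. The integrin median was -0.083 under quantile normalization and -0.0046 with GC trends removed, where the cadherin median was -0.074. Without 1 library at a time the integrin median lay between -0.099 and -0.040 and the cadherin median between -0.24 and -0.18, with 3 integrins called higher in each, 4 to 5 integrins and 2 to 3 cadherins lower. With 1 library left in a group, that library is assumed to vary like the other group. Replicate numbers are shared by the groups, but the deviations of same-numbered libraries correlated at only 0.027 and the labels tie them to no shared batch. With the replicate block 8622 genes were called against 8396 without it, with 3 integrins higher, 5 integrins lower and 4 cadherins lower; Cdh24 was then called (-0.23, adjusted p = 0.0395). Read depth per gene is known only as a relative depth, so no counting interval can be given for the members under 0.5 RPKM.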
